A study of Homo sapiens with 10 samples.

Results

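SET knockdown in p53 wild-type U2OS was examined in 6 of the 10 RNA-seq libraries of the series: 3 libraries of the control CRISPR line that received a SET siRNA and 3 of the same line that received a control siRNA. U2OS is a human osteosarcoma cell line. All lines of the series derive from it, and the labels describe the control CRISPR line as p53 WT and a second line as p53 KO. Every group was grown in DMEM with 10% FBS and carried its siRNA for 96 h before total RNA was taken. The KO-labelled line gave 2 libraries with each siRNA, which are used here to see where the WT-labelled response differed. The series text describes the lines as a pair kept after clone identification, so each genotype may rest on 1 clone, and the same text names SET as the CRISPR target while describing a p53 knockout. Groups were therefore taken from the sample labels. Libraries of a group are labelled as biological replicates, but nothing says whether they came from separate cultures, and p-values therefore speak for the spread among these libraries, which may be technical. No siRNA sequence is printed because the labels and files used here hold none, and effects on other targets of the siRNA were not tested. Of 25593 gene entries, 14813 had an FPKM (fragments scaled to transcript length and to the fragments mapped in the library) of at least 1 in at least 2 of the 10 libraries and were tested.

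SET is an acidic histone chaperone of the nucleosome assembly protein family. It also binds and inhibits protein phosphatase 2A (PP2A), it belongs to the INHAT complex that shields histone tails from acetyltransferases, and it can occupy the unacetylated C-terminal domain of p53, where it holds back transcription of p53 target genes. p53 itself is a transcription factor that drives genes of cell cycle arrest, apoptosis, DNA repair and metabolism, and it lowers proliferation genes mainly indirectly, through p21, RB family proteins and the DREAM complex.

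The 6 libraries had between 13908 and 14153 genes at 1 FPKM or more. Fragment totals inferred from the authors' confidence intervals were 14288107 to 17012089, and the median half-width of those intervals over genes at 1 FPKM or more was 8.43% to 9.20% of the value. Libraries of 1 siRNA group differed by a median of 0.070 to 0.094 on the log2 scale, and libraries of different siRNA groups by 0.225 to 0.261. Of 19 osteoblast lineage genes, 10 were tested, among them SPARC, a bone matrix protein, at 354, 344 and 351 FPKM and the bone collagen COL1A1 at 289, 278 and 234 in the control libraries. The osteoblast factor SP7, osteocalcin (BGLAP) and COL1A2 did not reach the level needed for testing, and all 9 untested lineage genes stayed under 1 FPKM in the 6 libraries. Among markers of other cell types, 9 of 10 blood cell, 9 of 9 endothelial and 9 of 12 epithelial genes were also under 1 FPKM in all 6. The summed level of the blood cell markers was 9.40 to 10.8 FPKM with control siRNA and 8.46 to 10.4 with SET siRNA, that of the endothelial markers 1.89 to 2.02 and 1.29 to 1.45, and that of the epithelial markers 13.5 to 15.1 and 16.0 to 18.5. Their part in the results below was not tested. The library kit is named without a strand setting, so overlapping and antisense genes cannot be told apart.

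SET mRNA was cut strongly in every knockdown library, which checks the siRNA labels. SET (chromosome 9, 131445934 to 131458675, in the coordinates of the deposited files, whose genome build is not given in the sources used here) stood at 121, 125 and 126 FPKM with control siRNA and at 12.3, 13.3 and 12 with SET siRNA. The groups were far apart, and all 3 knockdown libraries lay close together. SET was 9.91-fold lower, a change of -3.21 on the log2(FPKM + 1) scale (SE 0.047; limma with Benjamini-Hochberg adjustment, adjusted p = 1.26e-09). In the KO-labelled line it went from 158 and 169.7 to 14.9 and 14.9 FPKM. All log2 changes given here are on that scale, which understates the change of low genes, and fold changes are ratios of mean FPKM.

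The response was wide and mostly small in size. A gene was called where its adjusted p was below 0.05. By that rule 8117 of 14813 genes, 54.8%, were called, 4564 higher (30.8%) and 3553 lower (24%). The median absolute change of the called genes was 0.37 on the log2 scale. A stricter rule, called and changed at least 1.5-fold on the log2(FPKM + 1) scale, kept 1684 genes (11.4%), 869 higher (5.87%) and 815 lower (5.5%), and a 2-fold rule kept 345 (2.33%), 188 higher (1.27%) and 157 lower (1.06%). Which direction held more genes depended on the scaling: by the 1.5-fold rule 748 were higher and 954 lower after median-of-ratios scaling, and 763 and 961 after quantile normalization. Counts of gene list members below are to be read against these shares, and counts of 3 or fewer moved in many lists when 1 library was left out. The 3 and 3 values did not overlap in 9522 genes (64.3%). For genes named below as 1 of the 15 largest rises or falls, the lack of overlap was a condition of the choice. In bulk RNA, a change in the share of cells that express a gene and a change in its RNA per cell cannot be told apart. Genes up at least 2-fold made 0.474% to 0.518% of all FPKM in the control libraries and 1.45% to 1.5% in the knockdown libraries, while those down at least 2-fold went from 1.11% to 1.18% to a range of 0.415% to 0.435%.

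Small RNA genes gave the most extreme log2 changes and the least reliable ones. Of 176 tested genes with small nucleolar, small nuclear, micro- and similar RNA symbols, 20 were called and changed at least 1.5-fold. They include 12 of the 27 genes that were called and changed at least 4-fold. SNORA27, a small nucleolar RNA gene, was listed at 0, 0 and 0 FPKM in the controls and at 161, 151 and 50.2 after SET siRNA. On genes this short a few fragments make a high FPKM, so these rows are not used further.

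**Figure D1:**
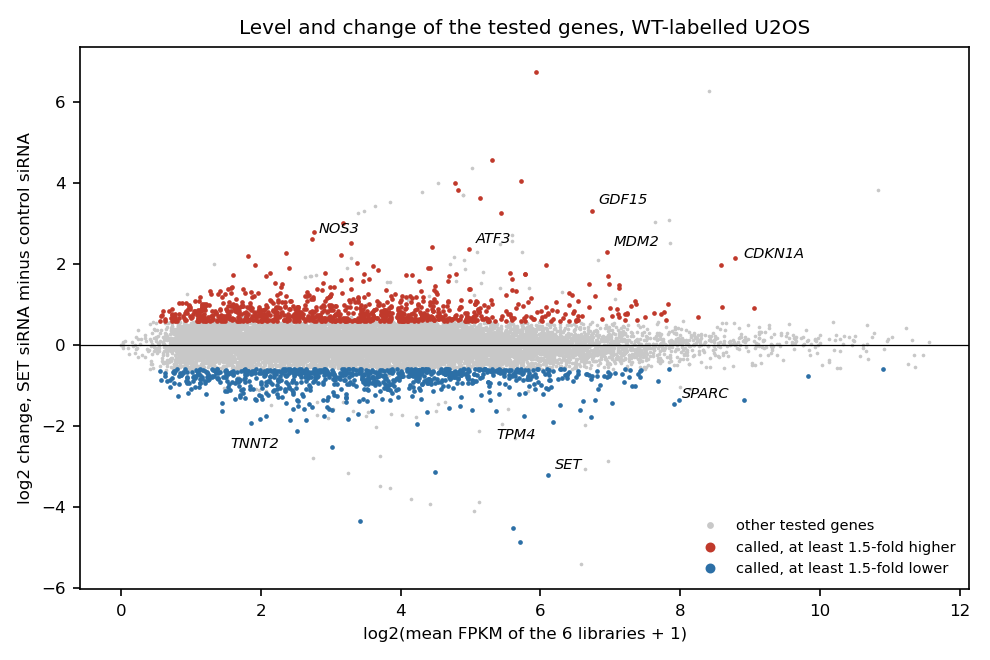
Log2 change after SET siRNA (vertical) against the mean level of the 6 WT-labelled libraries (horizontal, log2 scale) for 14813 tested genes. Red and blue points are the 869 genes called and at least 1.5-fold higher and the 815 called and at least 1.5-fold lower; by this rule 2.99% of the genes whose higher group mean was under 1 FPKM were called, 12% at 1 to 5 FPKM and 10% at 100 FPKM or more, and several of the farthest points are small RNA genes.

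Relatives of SET moved by small amounts and more often down than up. Of 18 SET family members and acidic histone chaperones other than SET, 8 were lower and 3 higher, with a median change of -0.09 against 0.04 over all tested genes. DEK, a chromatin protein that binds histones, fell from 83.2 ± 2.92 to 54.3 ± 2.7 FPKM (mean ± SD, n = 3 and 3 here and below). NAP1L4, a nucleosome assembly protein, fell 1.5-fold, and the acidic nuclear proteins ANP32A and ANP32B fell by 0.37 and 0.39 on the log2 scale. TSPYL2, another member of the SET family and an inhibitor of proliferation, went the other way, from 16.3, 16 and 18.2 to 30.6, 28.7 and 25.7 FPKM, higher in every knockdown library than in any control library. The abundant chaperones nucleolin (NCL), with a log2 change of -0.06, and NAP1L1, with 0.03, were not called. The listed SET copy SETP20 also dropped (4.75 to 0.486 FPKM), but it is nearly identical to SET, so reads of both may be mixed.

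SET also belongs to a complex at the endoplasmic reticulum that granzyme A attacks in target cells and that contains nucleases. Of 5 measured partners, ANP32A and the chromatin protein HMGB2 were lower (HMGB2 by 0.32 on the log2 scale), and 4 of the 5 were lower after median-of-ratios scaling. The median change of the 5 was -0.28. The nuclease NME1 had a log2 change of 0.03 and was not called.

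PP2A, the phosphatase that SET inhibits, showed an uneven response. Its catalytic subunit PPP2CA was at 52.7, 54.8 and 57.3 FPKM in the controls and at 29.3, 27.7 and 27.2 after SET siRNA. The groups did not overlap, and PPP2CA fell 1.96-fold (adjusted p = 8.81e-07). It also went from 57.9 and 60.6 to 27.4 and 28.7 FPKM in the KO-labelled line. The second catalytic gene, PPP2CB, rose from 43.4 ± 2.14 to 53.2 ± 1.34, and of the scaffold genes PPP2R1B rose by 0.24 on the log2 scale. PPP2R1A, the main scaffold, had a log2 change of -0.22, whose call was lost without SET siRNA library 2 (adjusted p = 0.0517). Among 15 regulatory subunits 7 were lower and 3 higher, but the lower count was 3 without control library 2, 4 without control library 3 and 2 without SET siRNA library 3, and the higher count was 1 without control library 1. PPP2R5D, the delta subunit of the B56 family, fell 1.62-fold and is the 1 regulatory subunit that passed the 1.5-fold rule. Of 10 inhibitors and modifiers, 5 were higher and 1 lower. The higher count was 3 without control library 1, control library 3 or SET siRNA library 2. After median-of-ratios scaling 3 were higher and 3 lower, and the lower count was also 3 with the 6 WT-labelled libraries alone. The methylesterase PPME1, which inactivates PP2A, rose from 49.1 ± 1.12 to 65.6 ± 1.86 FPKM, and KIAA1524, the inhibitor CIP2A, fell by 0.25 on the log2 scale.

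Other histone chaperones fell more often than they rose. Of 17, 12 were lower and 1 higher (median -0.25). CHAF1A, the large subunit of the replication-coupled chaperone CAF-1, fell from 22.3 ± 0.80 to 13 ± 0.392 FPKM. HJURP, which loads the centromeric histone CENPA, fell 1.59-fold, and SUPT16H of the FACT complex 1.53-fold.

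**Figure D2:**
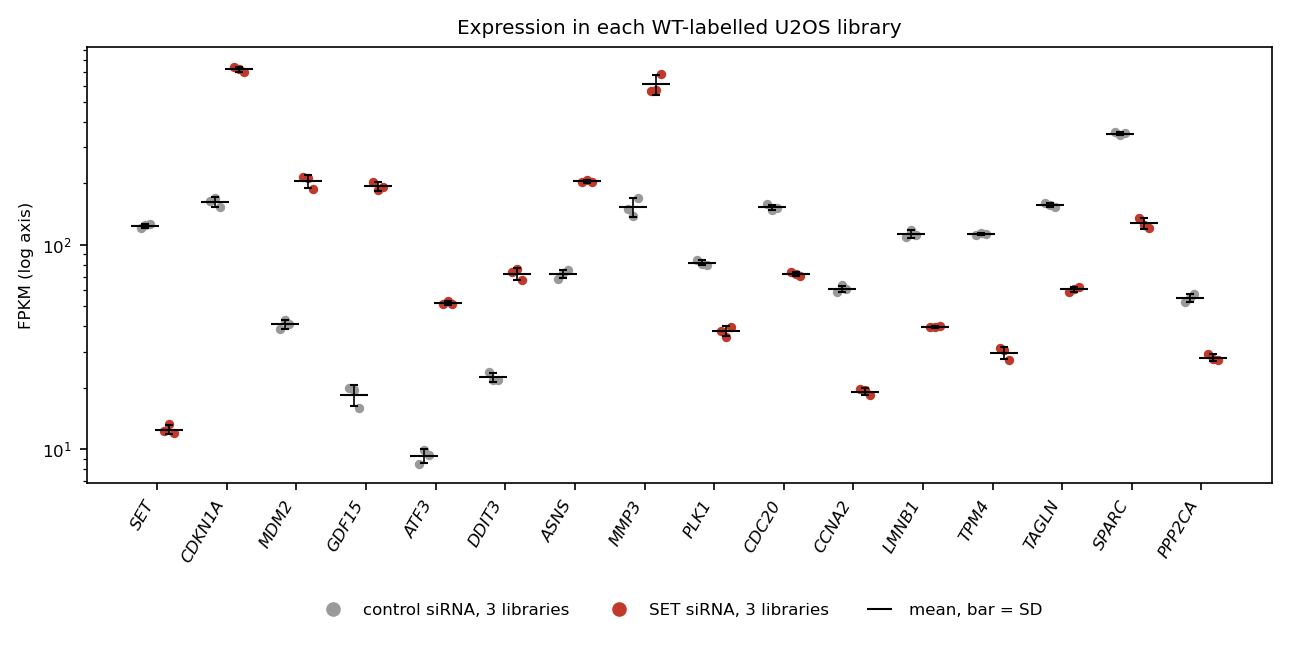
FPKM (log axis) of 16 genes in each WT-labelled library, grey for control siRNA and red for SET siRNA, with the mean and SD of 3 libraries in black. SET falls about 10-fold, GDF15 rises about 10-fold, and replicates lie close together.

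Genes known as direct targets of p53 rose as a group. Of 93 measured targets in 5 functional lists, 76 were higher and 5 lower, and 44 were called and at least 1.5-fold higher against none lower (all tested genes, 5.87% and 5.5%). Their median log2 change was 0.55. The lists were chosen with earlier results of these data known, so the counts describe the targets and are not independent evidence.

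CDKN1A encodes p21, the inhibitor of cyclin-dependent kinases that carries much of the p53 arrest. It was at 163, 169.8 and 153 FPKM with control siRNA and at 741, 721 and 699 with SET siRNA, 4.45-fold higher (log2 2.15, SE 0.046, adjusted p = 1.87e-08). MDM2, the ubiquitin ligase that degrades p53 and is itself a p53 target, went from 38.7, 42.9 and 41 to 213, 212 and 188. MDM2 rose 5.0-fold (adjusted p = 1.12e-07).

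Of the regulators of p53 in 2 lists, 8 of 16 and 5 of 11 were called, against 54.8% of all tested genes. Among 16 ligases, kinases and phosphatases, 6 were higher and 2 lower, and the 2 past the 1.5-fold rule were MDM2 and PPM1D, the WIP1 phosphatase that switches off the damage response (23.4 ± 0.963 to 47.4 ± 1.88 FPKM). MDM4, the MDM2 partner, rose by 0.52 and the kinase ATM by 0.42 on the log2 scale. The deubiquitinase USP7 (-0.04) and the ligase RFWD2 (0.00), which also act on p53, were not called. Of 11 enzymes that acetylate or deacetylate p53, 2 were higher and 3 lower, and none passed the 1.5-fold rule. The acetyltransferase EP300 fell by 0.17, CREBBP rose by 0.16, and the deacetylases HDAC1 (-0.02) and SIRT1 (0.09) were not called.

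Of 16 measured arrest targets, 14 were called higher and 2 lower, 1 of the falls being lost without control library 1 or SET siRNA library 2 (median 0.46). SESN2, a stress sensor that restrains mTORC1, rose from 21.7, 20.2 and 19.5 to 71.9, 70.3 and 74.6 FPKM. Its relative SESN1 went from 11.8 ± 0.45 to 37.6 ± 2.57, and the antiproliferative gene BTG2 rose 3.46-fold. SFN, which encodes the 14-3-3 sigma protein, fell from 224 ± 19.9 to 156 ± 5.17 FPKM, against the direction of the rest.

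Targets in apoptosis and at the cell surface rose as well. Of 21 apoptosis targets 15 were higher and 11 at least 1.5-fold higher. BBC3, which encodes the BH3-only protein PUMA, stood at 17.6, 17.4 and 14.8 FPKM in the controls and 48.6, 43.2 and 44.1 in the knockdown libraries. The death receptor FAS went from 10.1, 10.3 and 10.1 to 27.6, 27.1 and 26.3. Neither gene overlapped between groups. TNFRSF10B, the TRAIL receptor DR5, rose 2.28-fold and the oxidoreductase TP53I3 2.17-fold. BAX, the pore-forming effector, had a smaller log2 change of 0.27 whose adjusted p of 0.0406 was lost without control library 3 (0.132) or SET siRNA library 3 (0.118), among others. Of 25 membrane and signalling targets 22 were higher, 14 of them at least 1.5-fold, with a median of 0.65.

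GDF15, a stress-induced cytokine and one of the membrane and signalling targets, rose by an order of magnitude. It went from 20, 19.4 and 16 FPKM to 203, 185 and 192, 10.5-fold higher (log2 3.32, SE 0.1, adjusted p = 9.29e-08). An overlapping entry, LOC100653010, rose with it and cannot be separated from it here. KITLG, the ligand of the KIT receptor, rose 2.99-fold, and TGFA, a ligand of the EGF receptor, 2.52-fold.

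Repair and metabolic targets followed. Of 11 repair targets 10 were higher, led by RRM2B, the p53-inducible ribonucleotide reductase subunit (64.9 ± 3.61 to 152 ± 7.39 FPKM), and POLH, a translesion polymerase (1.66-fold). PCNA, the sliding clamp and the most abundant of them, had a log2 change of 0.04 and was not called. Among 20 metabolic targets 15 were higher and 1 lower. The ceramidase ACER2 went from 3.33, 3.42 and 3.14 to 10.6, 11.6 and 9.6 FPKM, and C12orf5, the TIGAR phosphatase, rose 2.22-fold.

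A p53 response element is made of half-sites, short palindromic decamers. The half-site consensus was searched for in RefSeq promoters, defined as 250 bases before to 50 bases after the annotated start, on both strands. Promoters were matched for 10679 of the 14813 tested genes. Of 78 p53 targets with a promoter, 8 held at least 1 half-site (10.3%), against 5.22% of all tested genes. Half-sites outside this window were not searched for, so a target without a match may hold one elsewhere. CDKN1A held none within the window. Targets with a half-site were higher in 7 of 8 cases and those without in 57 of 70. The promoters of AEN, an apoptosis-enhancing nuclease (63.2 to 114 FPKM), and PLK2, a stress-induced kinase (40.1 to 49.4 FPKM), are shown because they carry a match close to the start of a called target. They are RefSeq sequences of GRCh38.p14, AEN at chr15:88621090-88621389, plus strand and PLK2 at chr5:58460037-58460336, minus strand, with the half-site in capitals, 34 and 132 bases before the start. AEN rose in the KO-labelled line as well, as given below. A match is a description of letters and not a shown binding site.
AEN: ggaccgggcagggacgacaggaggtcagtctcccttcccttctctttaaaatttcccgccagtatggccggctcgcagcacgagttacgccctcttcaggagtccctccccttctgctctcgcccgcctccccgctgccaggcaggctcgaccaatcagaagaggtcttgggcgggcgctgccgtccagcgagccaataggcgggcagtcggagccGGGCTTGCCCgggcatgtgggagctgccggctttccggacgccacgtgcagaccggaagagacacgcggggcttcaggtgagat
PLK2: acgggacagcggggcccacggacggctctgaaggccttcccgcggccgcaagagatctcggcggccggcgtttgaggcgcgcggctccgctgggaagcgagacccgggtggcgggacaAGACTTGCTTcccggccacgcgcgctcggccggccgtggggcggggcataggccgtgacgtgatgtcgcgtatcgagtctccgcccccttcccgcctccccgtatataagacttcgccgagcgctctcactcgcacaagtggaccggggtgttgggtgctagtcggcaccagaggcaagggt

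Inhibitors of cyclin-dependent kinases split in direction. All 7 measured genes were called, 3 higher and 4 lower. Beside CDKN1A, its relative CDKN1C (p57) rose by 0.46 and CDKN2B (p15) by 0.28 on the log2 scale. CDKN2C, which encodes p18, fell from 31.5 ± 1.0 to 14.3 ± 0.673 FPKM, and CDKN3, a kinase-associated phosphatase with a mitotic expression peak, 1.69-fold.

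Cyclins and their kinases fell nearly as a block. Of 20 genes 17 were lower and 2 higher (median -0.39), and 4 fell at least 1.5-fold (2 without control library 2 or SET siRNA library 1). CCNA2, the cyclin of S phase and G2, was at 59.1, 63.4 and 60.7 FPKM in the controls and 19.7, 19.5 and 18.4 after SET siRNA. The fall was 3.19-fold (log2 -1.62, SE 0.051, adjusted p = 1.08e-07). CCNE2, a G1/S cyclin, fell 2.56-fold and the mitotic cyclin CCNB1 1.53-fold. CCND2, a G1 cyclin, rose from 39 ± 1.66 to 53.7 ± 1.89 FPKM, while CCND3 fell from 60.1 ± 2.67 to 39.3 ± 2.17.

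The transcription factors that drive these genes were mixed. Among 21 E2F, RB and DREAM components 9 were lower and 6 higher. The activators E2F1 and E2F2 fell by 0.58 and 0.52, MYBL1 by 0.69 and the mitotic factor FOXM1 by 0.48 on the log2 scale. The repressive members E2F6 and E2F7 rose by 0.52 and 0.24.

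Mitosis genes were lower almost without exception. Of 60 tested, 57 were lower and 0 higher, and 22 were at least 1.5-fold lower against 5.5% of all tested genes, with a median change of -0.49. CDC20, the activator of the anaphase-promoting complex, stood at 158, 148 and 151 FPKM in the controls and at 73.3, 71.6 and 70.5 in the knockdown libraries. PLK1, the polo kinase of mitotic entry, went from 84.4, 80.8 and 79.9 to 38, 35.6 and 39.8. For both genes every knockdown library lay far below every control library, with adjusted p = 5.2e-07 and 1.66e-06. PSRC1 and SPC24, a spindle protein and a kinetochore subunit, fell 1.97-fold and 1.95-fold. UBE2C, the ubiquitin-conjugating partner of the anaphase-promoting complex and the most abundant gene of the list, fell by 0.15 on the log2 scale.

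Promoters of mitosis genes often combine a cell cycle homology region, the element bound by the DREAM and MuvB complexes, with the CCAAT box bound by NF-Y. TTTGAA was found on either strand in 34 of 52 mitosis promoters (65.4%) against 9.63% of all promoters matched, and CCAAT in 73.1% against 36.5%. The 18 mitosis promoters without TTTGAA had the same median change as the 34 with it, -0.49 in both. The promoters of CDC20 (chr1:43358731-43359030, plus strand) and PLK1 (chr16:23678639-23678938, plus strand), RefSeq, GRCh38.p14, show the arrangement, with both motifs in capitals. In CDC20, TTTGAA lies 65 bases before the start, its reverse complement TTCAAA 178, and CCAAT 100 and 55 bases before it. PLK1 holds TTTGAA 29 and CCAAT 73 bases before the start.
CDC20: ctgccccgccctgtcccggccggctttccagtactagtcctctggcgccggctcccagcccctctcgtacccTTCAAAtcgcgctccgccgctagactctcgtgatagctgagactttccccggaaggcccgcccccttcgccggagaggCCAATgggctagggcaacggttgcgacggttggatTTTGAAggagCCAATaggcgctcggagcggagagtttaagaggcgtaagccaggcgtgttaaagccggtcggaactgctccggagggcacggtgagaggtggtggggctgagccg
PLK1: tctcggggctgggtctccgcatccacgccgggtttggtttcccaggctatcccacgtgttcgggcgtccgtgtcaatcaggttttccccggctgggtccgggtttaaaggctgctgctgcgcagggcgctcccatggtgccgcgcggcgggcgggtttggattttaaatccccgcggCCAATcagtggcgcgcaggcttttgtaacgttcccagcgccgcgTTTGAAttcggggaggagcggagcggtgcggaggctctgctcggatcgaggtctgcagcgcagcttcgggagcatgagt

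DNA replication genes fell with them. Of 50 tested, 42 were lower and 1 higher, 15 at least 1.5-fold lower (median -0.40). GINS1, a subunit of the replicative helicase, went from 16.9, 19.5 and 17.5 to 8.58, 9.51 and 8.12 FPKM, without overlap. CDC7, the kinase that fires origins, fell 2.12-fold, UHRF1, which brings maintenance methylation to new DNA, 2.01-fold and the helicase subunit MCM4 1.76-fold. An E2F motif (TTTGGCGC or TTTCCCGC on either strand) was in 36.4% of 44 replication promoters and in 3.62% of all. For RPA2 the promoter used was that of a different gene, POLR1B, matched through a synonym, and it held no E2F match. Replication genes were lower in 13 of 16 cases with the E2F motif and in 24 of 28 without the motif. The GINS1 promoter (chr20:25407423-25407722, plus strand, RefSeq, GRCh38.p14) carries it in reverse complement, in capitals, from base 6 of the transcript.
GINS1: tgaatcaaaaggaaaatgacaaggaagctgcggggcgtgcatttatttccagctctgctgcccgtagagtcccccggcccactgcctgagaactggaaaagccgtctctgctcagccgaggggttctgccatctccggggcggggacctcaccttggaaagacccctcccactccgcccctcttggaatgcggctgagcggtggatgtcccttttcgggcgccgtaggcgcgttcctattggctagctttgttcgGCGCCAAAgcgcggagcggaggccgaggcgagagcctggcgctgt

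Homologous recombination and Fanconi anaemia genes were lower in 20 of 27 cases and higher in 1, with 5 at least 1.5-fold lower (3 without SET siRNA library 1). EXO1, an exonuclease that resects DNA ends, fell from 19.3 ± 0.508 to 7.96 ± 0.224 FPKM, and FANCE of the Fanconi core complex 1.78-fold. Nucleotide supply was mixed, with 13 of 24 lower and 4 higher. PPAT, the first enzyme of purine synthesis, fell 1.74-fold and thymidine kinase TK1 by 0.51 on the log2 scale, while the mitochondrial folate enzymes MTHFD2 and SHMT2 rose 1.74-fold and 1.44-fold.

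Histone genes outside the replication-dependent clusters fell in 7 of 12 cases. H2AFX, the variant phosphorylated at DNA breaks, went from 163, 152 and 140.3 to 77.7, 72.5 and 78.1 FPKM, and the centromeric CENPA fell 1.83-fold. The linker histone H1F0, known to accumulate in cells that stop dividing, rose from 389 ± 16.8 to 522 ± 22.5. Of 58 replication-dependent histone genes in the files, 29 were tested, 11 lower and 4 higher (2 without control library 2 or 3, or SET siRNA library 1 or 3). Most of their transcripts lack poly(A) tails and many are near-identical, so these values are uncertain, HIST1H2BK (207 to 126 FPKM) being the most abundant.

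Most genes of a stress list rose. The list holds transcription factors and also stress genes of other kinds, namely VLDLR, CHAC1, DDIT4, PPP1R15A and TRIB3. Of its 17 genes 14 were higher and 1 lower. At least 1.5-fold rises were seen in 8, and the list had a median of 0.42. ATF4, the factor translated when eIF2 alpha is phosphorylated, went from 358, 371 and 375 to 679.8, 702 and 692 FPKM at the mRNA level. Its partner DDIT3 (CHOP) went from 23.8, 21.8 and 21.9 to 73.3, 76.6 and 67.2. ATF3, which is induced by both ATF4 and p53, was at 8.53, 9.97 and 9.41 in the controls and 51.1, 53.4 and 51.4 in the knockdown libraries. ATF4 and DDIT3 did not overlap between groups, and ATF3 rose 5.59-fold (log2 2.37, adjusted p = 4.73e-08). PPP1R15A, the phosphatase subunit that reverses eIF2 alpha phosphorylation, rose 3.5-fold, the chromatin stress factor NUPR1 3.31-fold, the glutathione-degrading enzyme CHAC1 3.26-fold and the pseudokinase TRIB3 2.15-fold. XBP1, the factor of the IRE1 branch, rose 1.71-fold.

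Genes of amino acid synthesis, transport and tRNA charging, among them known ATF4 targets, mostly moved in the same direction. Of 16 genes in the synthesis list, which also holds the stress sensor SESN2 given above, 11 were higher and none lower. Of 12 transporters 9 were higher and none lower. In the list of cytosolic aminoacyl-tRNA synthetases 13 of 22 genes were higher and 1 lower. That list also holds AIMP1 and AIMP2, which are not synthetases. ASNS, asparagine synthetase, stood at 68.4, 72.9 and 74.9 FPKM with control siRNA and 203, 209 and 203 with SET siRNA. All 3 knockdown values were well above the controls, and the rise was 2.84-fold (adjusted p = 1.12e-07). CTH, the cystathionine lyase that makes cysteine, rose 2.4-fold and SLC7A11, the cystine importer, 1.9-fold. The synthetases CARS, SARS and GARS rose by 0.83, 0.79 and 0.77 on the log2 scale, while KARS, the most abundant synthetase of the control libraries, had a change of -0.03 and was not called.

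The C/EBP-ATF response element (TGATGNAA, either strand) was in 6 of 15 promoters of the tRNA synthetase list (40%). It was in 27.3% of 11 in the amino acid synthesis list and 27.3% of 11 transporters, against 1.69% of all promoters matched. All 6 synthetases with the element were called higher, with a median of 0.47, and 3 of the 9 without it, with a median of -0.03. The 9 include AIMP1 and AIMP2. For the synthesis list the counts were 2 of 3 with it and 5 of 8 without. The CCAAT box split both lists too. In the synthetase list 6 of 7 with CCAAT were higher (median 0.45) and 3 of 8 without (0.05). In the synthesis list it was 6 of 7 and 1 of 4. AARS, CARS, IARS, NARS and TARS held both motifs, and the part of each was not tested. Over all tested genes with a promoter, 43.3% with the C/EBP-ATF element and 30.9% without were called higher. For CCAAT the shares were 31.3% and 30.9%. The promoters of ASNS (chr7:97872359-97872658, minus strand) and CHAC1 (chr15:40953221-40953520, plus strand), RefSeq, GRCh38.p14, are shown because both hold the element and both genes rose, with the element in capitals. It starts 68 bases before the start of ASNS and, in reverse complement, 209 bases before that of CHAC1.
ASNS: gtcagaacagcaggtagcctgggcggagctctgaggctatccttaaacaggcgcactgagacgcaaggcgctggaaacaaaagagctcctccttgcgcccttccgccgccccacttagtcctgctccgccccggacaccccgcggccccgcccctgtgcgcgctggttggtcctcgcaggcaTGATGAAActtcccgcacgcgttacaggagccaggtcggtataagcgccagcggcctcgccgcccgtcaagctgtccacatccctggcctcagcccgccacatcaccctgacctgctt
CHAC1: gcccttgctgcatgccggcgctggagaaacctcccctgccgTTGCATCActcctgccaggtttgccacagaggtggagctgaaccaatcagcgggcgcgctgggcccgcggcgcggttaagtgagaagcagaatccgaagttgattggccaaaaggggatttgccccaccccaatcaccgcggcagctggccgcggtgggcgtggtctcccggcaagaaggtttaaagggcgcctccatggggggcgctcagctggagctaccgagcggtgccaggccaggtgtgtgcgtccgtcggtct

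Endoplasmic reticulum chaperones rose less evenly, 13 of 23 higher and 1 lower. The summed level of the list was 2322.5, 2392.66 and 2394.14 FPKM in the controls and 2756.23, 2825.97 and 2302.05 after SET siRNA. By this sum SET siRNA library 3 lay below every control library. DNAJC3, the co-chaperone that inhibits the kinase PERK, rose from 6.58 ± 0.218 to 13.8 ± 2.17 FPKM, ERO1LB, an oxidase of disulfide bond formation, 2.24-fold and HERPUD1, of the degradation pathway, 1.73-fold. Of 17 heat shock genes 10 were higher and 3 lower. HSPB8 rose by 0.58 and the abundant cytosolic HSP90AB1 by 0.24, while the small heat shock protein CRYAB fell from 125 ± 1.77 to 75.4 ± 1.62 FPKM. HSPA1A and HSPA1B are near-identical and share reads, with log2 changes of 0.45 and 0.45.

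Oxidative stress and iron genes were higher in 17 of 26 cases and lower in 5 (3 without control library 1 or 3, or SET siRNA library 1 or 2). Thioredoxin reductase TXNRD1 rose 1.78-fold and haem oxygenase HMOX1 1.72-fold. The ferritin light chain FTL, the most abundant of the group, rose from 1558 ± 52.1 to 1923 ± 52 FPKM. The aldo-keto reductase AKR1C1 fell 1.77-fold, though it shares sequence with its paralogs. Among metallothioneins, the metal-binding proteins, MT2A rose from 1352 ± 112 to 1918 ± 91.7 FPKM and MT1X 1.47-fold.

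Lysosome and autophagy genes were broadly higher, 26 of 36 against 2 lower (median 0.35). ATP6V0D2, a subunit of the vacuolar proton pump, went from 0.704, 0.56 and 1.0 to 7.66, 6.55 and 8.26 FPKM, near silence to a low level. GABARAPL1, a ubiquitin-like protein of autophagosomes, rose 2.47-fold, the protease TPP1 1.74-fold and PSAP, the precursor of the saposins, from 614 ± 9.44 to 883 ± 26.1 FPKM. The proteasome differed: of 31 core and base subunits 8 were higher (5 without SET siRNA library 3) and 5 lower, with a median of 0.00. Its subunit PSMA1 stood apart, at 209, 221 and 215 FPKM in the controls and 128, 130.3 and 115 in the knockdown libraries, and it also went from 214 and 240.1 to 108 and 107 in the KO-labelled line. SDHB, the iron-sulphur subunit of succinate dehydrogenase, did the same within a respiratory chain that otherwise moved little: 132, 133 and 156 to 76.2, 83 and 87.2 FPKM, and 149 and 155 to 79.9 and 92.2 in the KO-labelled line.

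Respiratory chain genes were mostly not called, while fatty acid synthesis genes fell. Of 49 respiratory chain genes 10 were higher (16 without control library 3) and 7 lower, with a median of 0.01. Of 13 fatty acid synthesis genes 11 were lower and none higher. ACSL1, which activates long fatty acids, fell 1.98-fold, FADS2, a desaturase, from 90.8 ± 1.64 to 63.1 ± 2.04 FPKM, and stearoyl desaturase SCD 1.37-fold. Cholesterol synthesis gave 2 higher and 7 lower of 23, with ACAT2, the first enzyme of the pathway, lower by 0.53. Of 22 glycolysis genes 6 rose and 7 fell: the glucose transporter SLC2A1 fell 1.61-fold and lactate dehydrogenase LDHA 1.41-fold, while the transporter SLC2A3 rose 1.58-fold.

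Cytosolic ribosomal protein genes moved by small amounts and rarely fell. Of 79 genes 31 were higher, against 30.8% of all tested genes, and 1 lower, against 24%, with a median of 0.13, and none passed the 1.5-fold rule upwards. The higher count was 20 without SET siRNA library 2 or 3 and 20 after median-of-ratios scaling. RPL13A rose by 0.40 and RPL12 by 0.33 on the log2 scale. The translation factor EEF1A1, among the most abundant genes of the control libraries, rose from 2056 ± 5.94 to 2737 ± 46.2 FPKM. Ribosome biogenesis was mixed, 8 of 34 higher (5 without SET siRNA library 2) and 11 lower, led by TAF1D, a factor of RNA polymerase I, up 1.65-fold.

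Interferon-stimulated genes fell more often than they rose. Of 38 genes in the files 25 were tested, 13 lower and 5 higher. The higher count was 3 without control library 1 or 3, SET siRNA library 1 or 2, or either KO-labelled SET siRNA library. IFIT1, an antiviral protein that binds viral RNA ends, went from 5.68, 6.33 and 6.05 to 2.35, 1.99 and 2.21 FPKM, without overlap. IFI6 fell 2.21-fold and the membrane protein IFITM3 1.46-fold, while ISG20, a nuclease, rose from 2.49 ± 0.547 to 5.64 ± 0.595. Antigen processing genes were lower in 9 of 17 cases and higher in 2. The falls included the immunoproteasome subunit PSMB9 2.85-fold, the peptide-loading protein TAPBP 1.76-fold and NLRC5, the activator of class I genes, 2.4-fold. B2M, the class I light chain, had a log2 change of -0.02 and was not called.

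The interferon-stimulated response element, searched by its usual consensus on either strand, was in 66.7% of 21 interferon list promoters and 64.3% of 14 antigen processing promoters, against 2.54% of all. Interferon list genes were lower in 7 of 14 cases with the element and 2 of 7 without. Antigen processing genes were lower in 4 of 9 with the element and 3 of 5 without. IFIT1 (chr10:89392373-89392672, plus strand, RefSeq, GRCh38.p14) holds the element as a tandem in reverse complement, 116 and 103 bases before the start, shown in capitals.
IFIT1: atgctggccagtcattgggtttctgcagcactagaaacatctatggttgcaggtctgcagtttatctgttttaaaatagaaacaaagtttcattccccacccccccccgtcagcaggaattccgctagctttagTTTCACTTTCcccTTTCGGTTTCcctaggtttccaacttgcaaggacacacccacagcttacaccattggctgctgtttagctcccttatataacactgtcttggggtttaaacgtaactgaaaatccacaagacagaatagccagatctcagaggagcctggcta

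Secreted cytokines rose more often than they fell. Of 18 tested 10 were higher, 9 at least 1.5-fold, and 3 lower. CSF2, the growth factor GM-CSF, went from 2.57, 3.37 and 3.44 to 16.2, 17 and 13.9 FPKM, and the chemokine CCL3 from 1.19, 1.31 and 1.2 to 7.84, 7.14 and 7.14. CCL20 rose 3.24-fold and CSF1, the macrophage growth factor, 2.42-fold. IL18, the most abundant, had a change of 0.04 and was not called. CXCL14, a chemokine, moved against the rest and fell from 5.2 ± 0.67 to 0.74 ± 0.218 FPKM.

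The NF-kB subunits themselves were near flat. Of 16 subunits and feedback genes 7 were higher (4 without control library 1, or SET siRNA library 1 or 2) and 3 lower. NFKBIZ, a nuclear cofactor, rose 2.47-fold and was the 1 gene past the 1.5-fold rule, whereas RELA (-0.06) and the inhibitor NFKBIA (-0.06) were not called. Of 17 AP-1 and immediate early genes 9 were higher, led by MAFF (2.42-fold), the phosphatase DUSP5 (2.21-fold) and IER3 (94.3 ± 9.22 to 177 ± 4.02 FPKM). FOSL1 rose by 0.63, while EGR1 (-0.12) and JUNB (-0.05) were not called.

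Most of the EGF receptor family and its ligands rose. Of 10 family genes 7 were higher and 1 lower (median 0.53). AREG, amphiregulin, went from 3.77 ± 0.381 to 9.66 ± 1.23 FPKM, TGFA as given above, and HBEGF rose 1.49-fold. EGFR went from 5.32, 5.0 and 5.26 to 9.34, 9.2 and 9.85, again without overlap. ERRFI1, a feedback inhibitor of the receptor, rose 1.48-fold. Other receptor tyrosine kinases more often fell, 9 of 19 against 3 higher. EPHB2 fell 2.24-fold, AXL from 94.6 ± 2.09 to 45.4 ± 1.22 FPKM, PDGFRB 2.06-fold and FGFR1 1.65-fold. EPHA2 and the collagen receptors DDR1 and DDR2 rose by 0.53, 0.55 and 0.68.

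Among developmental pathways, Wnt genes fell in most cases, 13 of 21 lower and 3 higher (median -0.47), with 8 at least 1.5-fold lower. The receptors FZD2 and FZD4 fell 2.82-fold and 2.17-fold, and AXIN2, the feedback target, 2.04-fold. TGF-beta and BMP genes split, 12 of 32 lower and 6 higher. TGFBI, a matrix protein induced by TGF-beta, rose 2.4-fold and ID1, a BMP target, from 415 ± 28.6 to 583 ± 26.2 FPKM, while the ligand BMP6 fell 2.89-fold, the receptor TGFBR3 2.51-fold and the inhibitor SMAD6 1.94-fold. Of 12 Notch genes 5 were lower, led by the glycosyltransferase LFNG (2.51-fold). YAP and TEAD targets showed 9 of 20 lower and 4 higher, with F3, tissue factor, 3.29-fold lower and ANKRD1 1.96-fold higher.

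Genes of the contractile and actin cytoskeleton mostly fell. Of 23 contractile genes 19 were lower and 2 higher, 7 at least 1.5-fold lower (median -0.35). TPM4, a tropomyosin that stabilises actin filaments, stood at 112, 114 and 112 FPKM in the controls and 31.2, 30.5 and 27.3 in the knockdown libraries. TAGLN, the smooth muscle protein transgelin, went from 161, 157 and 152 to 58.9, 60.8 and 61.9. TAGLN did not overlap between groups, and TPM4 fell 3.81-fold (log2 -1.90, SE 0.071, adjusted p = 2e-07). TPM1 fell 2.02-fold and TPM2 1.21-fold, so the tropomyosins fell to unequal degrees. The troponins TNNT2 and TNNC1 fell 7.4-fold and 4.38-fold. ACTA2, smooth muscle actin, and MYLK, myosin light chain kinase, rose from 4.63 ± 0.209 to 10.1 ± 1.06 and from 13.2 ± 0.473 to 28.9 ± 0.561 FPKM, against the group.

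Actin, focal adhesion and SRF genes were lower in 21 of 31 cases and higher in 1. PDLIM1, an adaptor of stress fibres, fell 3.04-fold, PALLD, palladin, from 90.1 ± 3.56 to 49 ± 0.716 FPKM, and beta-actin (ACTB) 1.39-fold. Of 13 integrins 7 were lower and 2 higher. ITGA2, a collagen receptor chain, rose 1.53-fold and ITGA4 fell 1.65-fold, while ITGB1, the common beta chain, had a change of -0.09 and was not called.

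Intermediate filament and lamina genes were lower in 11 of 16 cases and higher in 2. LMNB1, lamin B1, whose loss is a known mark of senescent cells, went from 109, 118 and 112 to 39.6, 39.5 and 40.1 FPKM. Its 3 knockdown values lay within 1 FPKM of each other and far below the controls, 2.85-fold lower (adjusted p = 1.12e-07). LMNB2 fell 1.52-fold, KRT17 3.46-fold and vimentin (VIM) from 1272 ± 24.6 to 951 ± 48.4 FPKM.

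Matrix genes moved in both directions. Of 22 collagen chains 9 were lower and 5 higher, the higher count being 3 without control library 2 or 3 or SET siRNA library 1 or 3. COL1A1 fell to 155, 137 and 139 FPKM, COL5A1 fell 2.55-fold and COL3A1 from 3.4, 4.03 and 2.05 to 0.462, 0.20 and 0.278. SPARC fell from the control values given above to 136, 125 and 121 FPKM, 2.75-fold lower, and LOXL1, which cross-links elastin, 3.15-fold. Among 40 other matrix genes 19 were lower and 6 higher, with MFAP5, a microfibril protein, 5.01-fold lower. Of the 10 tested osteoblast lineage genes, 7 fell and 2 rose, the falls including the factor RUNX2 by 0.38 and alkaline phosphatase ALPL by 0.55 on the log2 scale.

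Of 22 matrix proteases and inhibitors 11 were lower and 5 higher. MMP3, stromelysin, was at 149.9, 138 and 169.8 FPKM with control siRNA and 564, 574 and 686 with SET siRNA. It rose 3.99-fold, and the collagenase MMP1 rose from 2.96 ± 0.407 to 6.6 ± 1.01 FPKM. TIMP3, a protease inhibitor held in the matrix, fell 2.3-fold, ADAM12 2.5-fold and the gelatinase MMP9 1.71-fold.

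Several of the largest single changes lay outside these groups. NOS3, endothelial nitric oxide synthase, went from 1.03, 0.908 and 0.705 to 10.1, 9.74 and 11.5 FPKM. HTN1, a salivary histatin, went from 1.96, 1.97 and 1.73 to 18.4, 14.2 and 14.7. RGS16, a regulator of G protein signalling, rose 6.4-fold, PVRL4, the adhesion protein nectin-4, 4.58-fold and C15orf29 4.11-fold. The pseudogene NBEAP1 rose 6.05-fold. Among the falls, LBH, a transcription cofactor, went from 29.4, 29.2 and 28.1 to 7.19, 6.24 and 6.78 FPKM, FOXS1, a forkhead factor, fell 5.5-fold and HR, a histone demethylase, 3.52-fold.

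Some genes crossed the 1 FPKM line. In 165 genes all 3 control libraries were under 1 FPKM and all 3 knockdown libraries at 1 or more, and 157 of these were called. The opposite held for 107 genes, 98 of them called. C8orf75 went from 0.531 ± 0.0599 to 5.03 ± 0.224 FPKM, GOLT1A, a Golgi transport protein, from 0.619 ± 0.0492 to 3.42 ± 0.394 and WDR63, a dynein subunit, from 0.615 ± 0.0433 to 3.33 ± 0.271. RAB26, a vesicle GTPase, went the other way, from 3.6 ± 0.126 to 0.893 ± 0.0948.

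**Figure D3:**
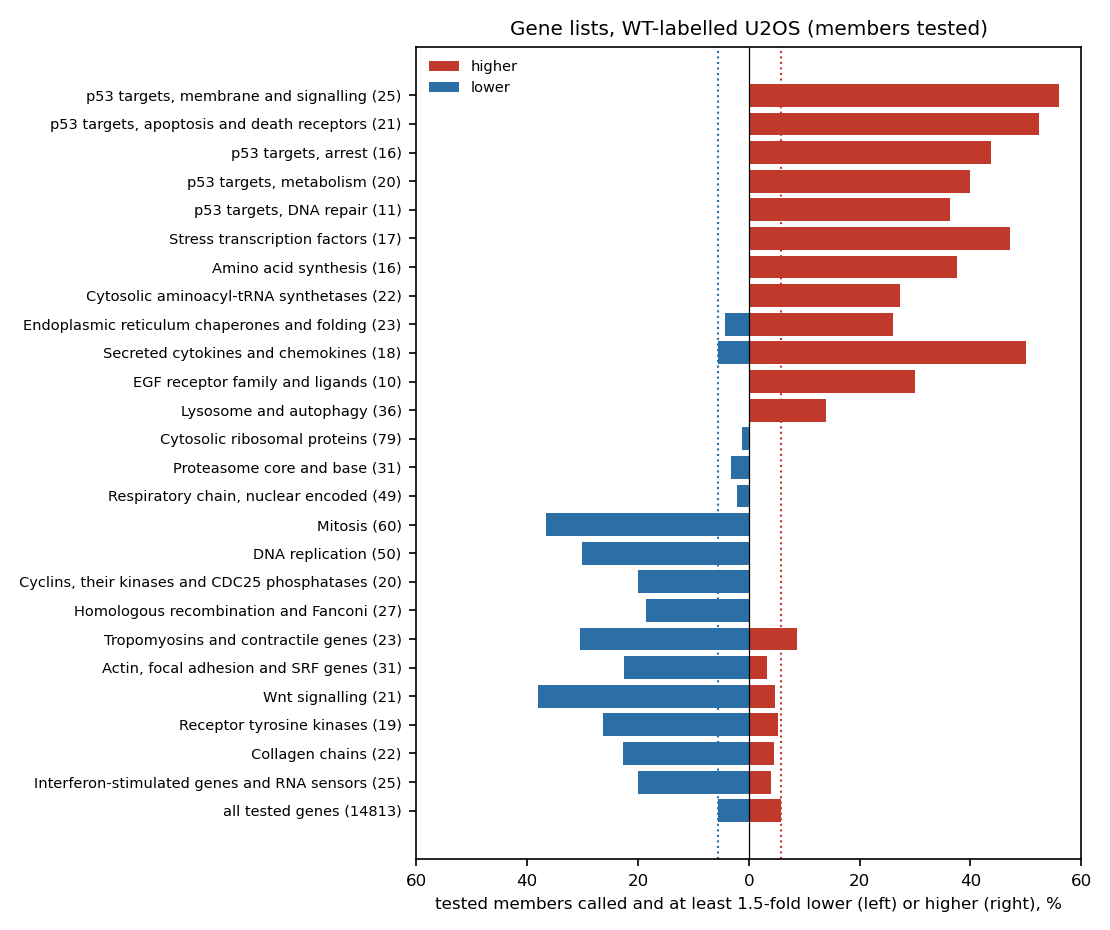
Percent of tested members called and at least 1.5-fold higher (red, right) or lower (blue, left), for a chosen part of the 65 gene lists. The number tested is in brackets, and dotted lines mark 5.87% and 5.5%, the shares over all tested genes. The p53 target lists and the list labelled stress transcription factors extend to the right, mitosis, replication, Wnt and contractile lists to the left. Ribosomal, proteasome and respiratory lists stay near 0. Lists not drawn include TGF-beta and BMP signalling (9.38% higher, 21.9% lower) and SR splicing factors (5.88% and 0%).

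The same siRNAs in the KO-labelled line gave a second response to set beside the first. In that line 2926 genes (19.8%) were called higher and 2645 (17.9%) lower, with 2 libraries in each group. The difference between the responses was tested as an interaction, WT-labelled minus KO-labelled, and called for 2831 genes (19.1%), 1557 positive (10.5%) and 1274 negative (8.6%). These counts depended on single libraries: the positive count was 620 without KO-labelled SET siRNA library 1, 823 without library 2 of that group, 896 without KO-labelled control library 2, 2438 without KO-labelled control library 1, and 980 and 950 without WT-labelled SET siRNA library 1 and 2. The negative count was 523, 643, 828, 2151, 840 and 810 in the same order. The lines also differ in their control levels, since CDKN1A was at 6.84 and 6.51 FPKM and MDM2 at 13.1 and 15.7 in the KO-labelled control libraries.

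Of the 1684 genes called and changed at least 1.5-fold in the WT-labelled line, 636 did the same, in the same direction, in the KO-labelled line. That is 37.8% of the WT-labelled set and 53.7% of the 1184 in the KO-labelled set, and 7 genes went in opposite directions. Over all 14813 tested genes, 525 passed this rule upwards and 659 downwards in the KO-labelled line. The WT-labelled set was 11.4% of all tested genes. The interaction was called for 416 of the 869 rises (47.9%) and 291 of the 815 falls (35.7%), against 19.1% of all tested genes. These genes were chosen by their WT-labelled change, which is part of the interaction. Higher shares than over all genes are therefore partly built in.

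Among the 93 p53 targets the interaction was called for 65, against 19.1% of all tested genes. In the KO-labelled line 25 of them were higher and 20 lower, with a median of -0.03 against 0.55. MDM2 went from 13.1 and 15.7 to 16.4 and 16.8 FPKM there, a difference between the lines of 2.10 on the log2 scale (adjusted p = 4.9e-05). FAS went from 2.32 and 3.0 to 1.64 and 1.86 (difference 1.74, adjusted p = 8.86e-05) and SESN1 from 3.48 and 3.55 to 2.55 and 2.94 (difference 1.86, adjusted p = 4.9e-05). In the line where p53 is labelled absent none of these 3 targets rose by more than 0.20 on the log2 scale. MDM2 and SESN1 are among the 8 largest positive differences given below, so for them this follows partly from that ranking. Called rises of at least 1.5-fold there numbered 4 arrest, 3 apoptosis, 0 repair, 2 metabolic and 3 membrane targets. Called falls of that size numbered 2, 1, 0, 0 and 2 in the same order. CDKN1A and GDF15 still rose there, CDKN1A to 19.4 and 19.3 FPKM and GDF15 from 4.21 and 5.37 to 14.6 and 16.9, by less on the log2 scale than in the WT-labelled line (differences 0.74 and 1.79, adjusted p = 0.000469 and 0.000301). AEN changed by 0.91 in the KO-labelled line and 0.84 in the WT-labelled line, with no difference called (adjusted p = 0.554).

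Mitosis and replication genes differed between the lines in a like number of cases, 78 of 110. The median change was -0.47 in the WT-labelled and -0.01 in the KO-labelled line, where 23 were higher and 14 lower. CDC20 went from 155 and 139 to 144 and 142 FPKM in the KO-labelled line (difference -1.04, adjusted p = 0.00013), and PLK1 from 89.3 and 76.9 to 79.9 and 76.8 (difference -1.01, adjusted p = 0.000435). UHRF1 had a difference of -1.16 (adjusted p = 0.000271). CCNA2 and LMNB1 were lower in both lines, with log2 changes of -1.08 and -0.92 in the KO-labelled one, and changed by more in the WT-labelled one (differences -0.54 and -0.56, adjusted p = 0.00313 and 0.0019).

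For stress and cytoskeletal genes the called differences are to be read against the 19.1% of all tested genes. The stress, amino acid synthesis and tRNA synthetase lists held 55 genes. Of these 38 were higher in the WT-labelled and 32 in the KO-labelled line, and the interaction was called for 19. ATF4 changed by 0.76 in the KO-labelled line and PPP1R15A by 1.52, with differences near the threshold. For ATF4 the adjusted p was 0.127, and 0.0452 after quantile normalization. For PPP1R15A it was 0.0501, and 0.0301 to 0.0493 under 4 alternatives, 1 of them the replicate block. ATF3 (1.40) and ASNS (0.73) rose in both and by more in the WT-labelled line (differences 0.97 and 0.76, adjusted p = 0.000435 and 0.000495). Of 116 contractile, actin and matrix genes, 68 fell in the WT-labelled and 57 in the KO-labelled line, and the interaction was called for 31. TPM4 went from 114 and 129.7 to 29.4 and 33.7 FPKM and SPARC from 310.4 and 284 to 112 and 105 in the KO-labelled line, log2 changes of -1.92 and -1.44 beside -1.90 and -1.45 in the WT-labelled line. A difference that was not called does not show that the lines respond alike.

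**Figure D4:**
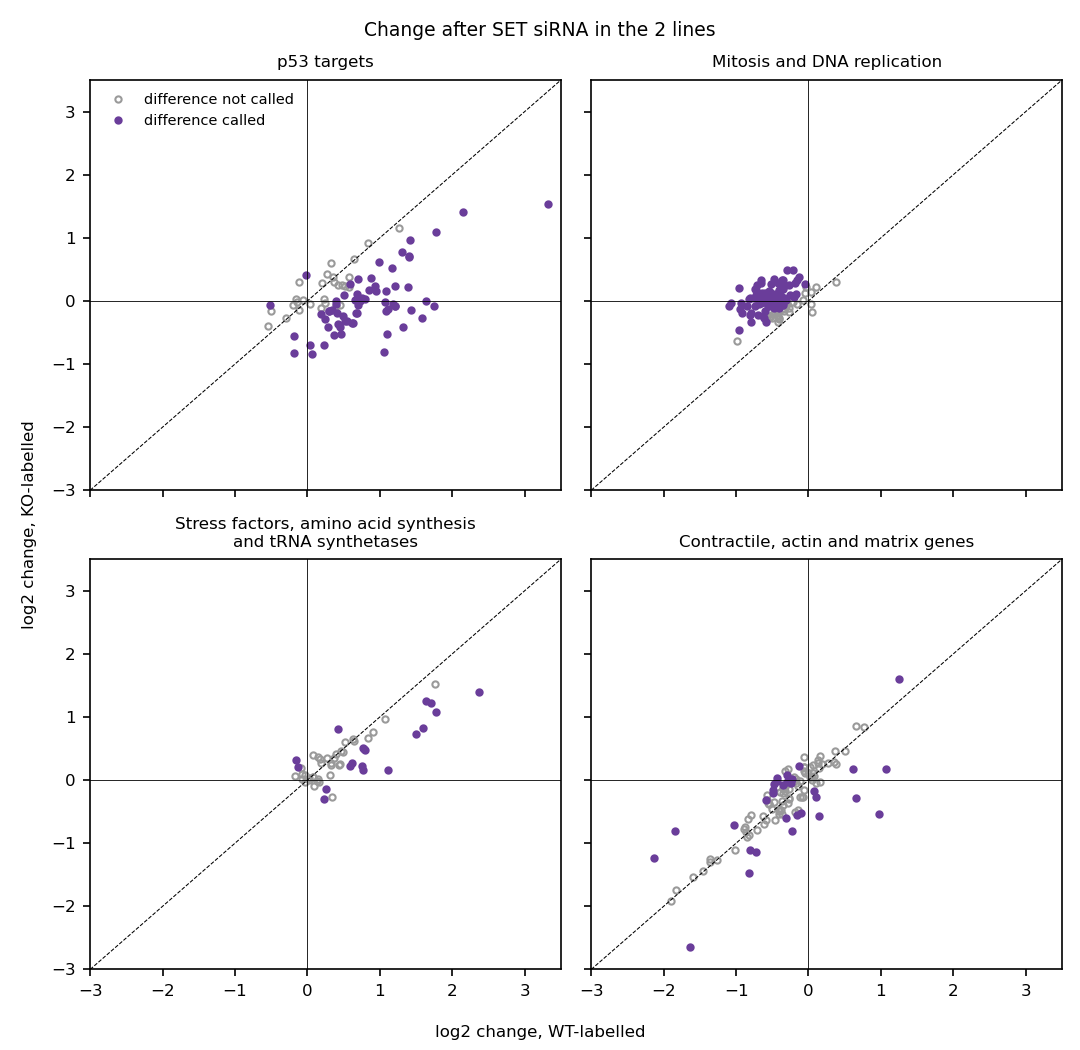
Log2 change after SET siRNA in the WT-labelled line (horizontal) and KO-labelled line (vertical) for 93 p53 targets, 110 mitosis and replication genes, 55 stress and amino acid genes and 116 contractile, actin and matrix genes. Filled points have a called difference between the lines and the dashed line marks equal change; most p53 targets lie to its lower right and most mitosis and replication genes to its upper left.

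**Figure D5:**
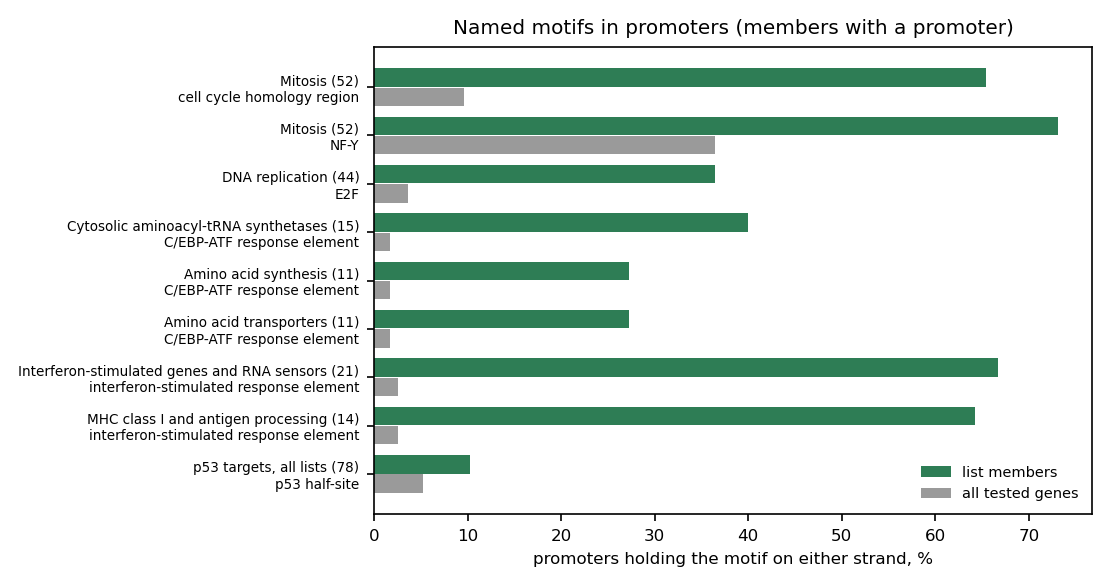
Percent of promoters (250 bases before to 50 after the start) that hold each named motif on either strand, for list members (green, number in brackets) and all tested genes with a promoter (grey). The cell cycle homology region is in 65.4% of mitosis promoters against 9.63% of all, and the p53 half-site in 10.3% of p53 target promoters against 5.22%.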

How the data were processed

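Each library's values are FPKM that the authors deposited in 1 table per library. Per the submitters' processing notes, bcl2fastq 1.8.4, TopHat2 2.0.4 and Cufflinks 2.0.2 were used; the build was not given in the sources used here. Reads could not be recovered from the FPKM, so no count test was run. The total RNA was extracted with Trizol, per the labels' protocols.

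Genes with an FPKM of at least 1 in at least 2 of 10 libraries were tested on log2(FPKM + 1) with limma 3.58.1 (R 4.3.3), with the 4 groups in 1 fit and eBayes with a trend. P-values are limma's, with Benjamini-Hochberg adjustment over 14813 genes, called below 0.05. The script was tested on simulated data. Entries that share a symbol were kept apart.

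The comparison, its members and 65 gene lists were chosen with earlier results of these data known; lists are described by counts, without a set test. Text names SET, CDKN1A and MDM2, the 15 largest rises and falls at a mean of 5 FPKM or more without overlap, up to 4 called members and the most abundant member of a list (any member of 31 lists marked for full description), the 8 most abundant genes, genes that crossed 1 FPKM, and 8 differences between the lines in each direction. AEN, KARS, PLK2, SFN and SNORA27 fall outside that rule and were chosen after their values were seen.

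Alternatives were a pseudocount of 0.1, no filter, a filter at 5 FPKM, median-of-ratios and quantile scaling, a replicate block, no trend, the 6 WT-labelled libraries alone, and each library left out.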

Additional observations from a re-analysis of the deposited data

Results flagged for a closer look

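Each result here is a difference between the lines in the response to SET siRNA, WT-labelled minus KO-labelled on the log2(FPKM + 1) scale, past an adjusted p of 0.05 in limma's interaction test. The 8 largest positive and 8 largest negative differences among genes called in the WT-labelled line are given.

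On the positive side, 2.10 was the difference for MDM2, 1.87 for TP53INP1, a p53 target that promotes autophagy and death, and 1.86 for SESN1. TP53INP1 went from 13, 15.3 and 12.7 to 31.5, 29.9 and 27.3 FPKM in the WT-labelled line and from 5.56 and 6.05 to 2.88 and 2.9 in the KO-labelled line, a rise beside a fall. For the pseudogene NBEAP1 it was 2.08, for the chemokine CCL3 2.03, for nectin-4 (PVRL4) 1.93 and for C8orf75 1.90. PVRL4, CCL3 and C8orf75 stayed under 1 FPKM in every KO-labelled library, so no response was measurable there. SCHIP1 had a difference of 1.85 (adjusted p = 0.0492), and its control libraries ranged from 0.334 to 3.09 FPKM. Leaving out 1 library gave an adjusted p of 0.0530 to 0.147, except for control library 2 and SET siRNA library 3, without which it stayed called. It was also not called with a pseudocount of 0.1 (0.0698), with no filter (0.0899), after median-of-ratios scaling (0.0501) or quantile normalization (0.0579), or without the trend (0.0564).

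On the negative side, CDC20 had a difference of -1.04, E2F2, an activator of S phase genes, -1.04 and UHRF1 -1.16. E2F2 went from 12.7, 13.1 and 11.9 to 8.09, 8.31 and 8.91 FPKM in the WT-labelled line and from 17 and 16.1 to 24 and 24.2 in the KO-labelled line, so the directions were opposite. C9orf140, a proliferation gene, had -1.11 and the homeobox gene HMX2 -1.10. ANXA10, an annexin, had -1.29 and was under 1 FPKM in all KO-labelled libraries. The replication-dependent histone HIST1H4I had -1.99, with an adjusted p of 0.0549 at a pseudocount of 0.1. KRTAP21-2, a hair keratin-associated gene, had -3.0; both it and HIST1H4I were listed at 0 in at least 1 library, and the WT-labelled call of KRTAP21-2 was lost without control library 3 or SET siRNA library 2 or 3 (adjusted p = 0.0757 to 0.0778).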

How the results depend on the processing

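The balance of rises and falls depended on the scaling. Median-of-ratios scaling gave 3974 called higher and 4075 lower, 748 and 954 by the 1.5-fold rule and 170 and 179 at 2-fold, and quantile normalization 763 and 961 (1.5-fold) and 176 and 190 (2-fold). No called value of a named gene turned in sign. The count of genes called and at least 2-fold higher was 419 with a pseudocount of 0.1, and lower 333, against 188 and 157. Leaving out 1 library moved the counts of the interaction, 1557 positive and 1274 negative, to between 620 and 2438 and between 523 and 2151. Leaving out 1 library gave 3905 to 4836 called higher, 3068 to 3845 lower, 843 to 882 1.5-fold higher and 793 to 895 lower, with SET at -3.25 to -3.18. Over the other alternatives the 1.5-fold counts ran from 630 and 655 at a minimum of 5 FPKM to 1298 and 1128 at a pseudocount of 0.1, and called higher and lower from 3601 and 2981 at 5 FPKM to 4836 and 4075. Median-of-ratios scaling moved the median change of all genes from 0.04 to 0.00 and the share of called genes that were higher from 56.2% to 49.4%. With the replicate number as a replicate block, 4738 genes were called higher and 3734 lower, 875 and 828 by the 1.5-fold rule, 192 and 168 at 2-fold, the interaction gave 1825 and 1575, and SET changed by -3.21. Deviations of same-numbered WT-labelled libraries correlated at -0.101, -0.0558 and 0.0852, and of KO-labelled ones at -0.000334, so the numbers were not taken as pairs. Of the list counts, 212 of 4680 recomputed values moved by over 1.5 times, and calls of named genes were lost for BAX, PPP2R1A, SCHIP1 and KRTAP21-2. The replicate block changed no call of a named gene but the difference between lines for PPP1R15A (adjusted p = 0.0301). Depth limits genes near 1 FPKM and short RNAs, where few fragments carry a value.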

Other observations

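The BCL2 family, which decides the release of cytochrome c from mitochondria, moved on both its sides. Of 16 members 9 were higher and 4 lower. The BH3-only gene PMAIP1 (NOXA) rose from 55.7 ± 2.09 to 112 ± 5.18 FPKM, as BBC3 did. BCL2L1, which encodes the survival protein BCL-XL, rose from 107, 106 and 105 to 169, 171 and 171 FPKM, with 63.3 and 58.7 and 60 and 61.3 in the KO-labelled line (difference 0.69, limma adjusted p = 0.000271). BMF, a BH3-only gene tied to the cytoskeleton, fell 2.72-fold, and BIK rose by 0.84 on the log2 scale.

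Polycomb and DNA methylation genes were lower in 11 of 20 cases and higher in 5; the higher count was 3 without control library 3, or SET siRNA library 2 or 3. CBX2, a chromodomain subunit of Polycomb repressive complex, went from 32, 31.4 and 27.4 to 15.5, 14.6 and 16.9 FPKM, with no overlap. BMI1 fell by 0.54 and the maintenance methyltransferase DNMT1 by 0.36 on the log2 scale. In the KO-labelled line CBX2 changed by 0.01 and DNMT1 by 0.21 (differences -0.92 and -0.58, limma adjusted p = 0.00158 and 0.00062).

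Among 17 SR splicing factors and CLK kinases, which phosphorylate them, 6 were higher (35.3%) and 4 lower (23.5%). These shares were near the 30.8% and 24% of all tested genes, so the list as a whole showed no shift. SRSF2 and SRSF7 fell by 0.49 and 0.48, while SRSF8 rose by 0.65 and CLK1 by 0.45 on the log2 scale. For SRSF2, SRSF7 and SRSF8 the lines differed (-0.53, -0.63 and 0.92, limma adjusted p = 0.000903, 0.00101 and 0.000298).

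Clock genes showed 9 of 16 higher and 3 lower. DBP, an output factor of the clock, fell from 14.2 ± 1.26 to 7.17 ± 0.844 FPKM, whereas the repressor BHLHE40 rose from 50.1 ± 4.59 to 76.9 ± 5.07 and NR1D1 (REV-ERB alpha) 1.49-fold. Time of collection is not given in the labels.

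Genes of the RNA interference machinery, on which the siRNA itself depends, changed by small amounts. Of 13, 4 were higher (30.8%, the same share as over all tested genes) and 2 lower (15.4% against 24%). The lower count was 4 without either KO-labelled control library. EIF2C2 (AGO2), the slicing argonaute, had a log2 change of -0.01 and was not called, and DGCR8, of the microprocessor, fell by 0.33.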
